A study of Homo sapiens with 8 samples.

Results

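The comparison described here is that between TAF3 siRNA and a non-targeting control siRNA in cells exposed to doxorubicin, taken over all probes of the deposited signal table. It uses 4 of the 8 arrays of the series: TAF3 siRNA with doxorubicin (replicates 2 and 4) and control siRNA with doxorubicin (replicates 2 and 4). Both groups are HCT116, an established human colon carcinoma line, transfected with siRNA, kept for 48 hours and then given 0.5 µM doxorubicin for 24 hours. The other 4 arrays are the same transfections without the drug (replicates 1 and 3 of each siRNA), and they enter the fit and are given where they bear on a result. Oligo(dT) primed the labelling of 200 ng of RNA for each Illumina HumanHT-12 v3 BeadChip. A probe's signal is its brightness on a linear scale. The labels do not say whether the 2 replicates of a group came from separate cultures. A p-value here therefore reflects only how far these arrays differ, which may be technical variation. The labels name no second siRNA against TAF3, and loss of TAF3 cannot be told apart from other effects of that siRNA.

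TAF3 is a subunit of TFIID, the general transcription factor that recognises core promoters and nucleates assembly of RNA polymerase II. Its PHD finger binds trimethylated lysine 4 of histone H3, a mark of active promoters, and TAF3 has been studied as a coactivator for p53. Doxorubicin poisons topoisomerase II, breaks DNA and activates p53. In cells with wild-type p53 such as HCT116 this induces the cell cycle inhibitor CDKN1A, and genes for DNA replication and mitosis are then repressed through E2F and DREAM complexes.

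The TAF3 transcript did not show the knockdown. Its signals were 76.6 and 67.3 with TAF3 siRNA, against 89.3 and 101 with control siRNA, where an array's background limit lay between 81.3 and 87.3. Both arrays with TAF3 siRNA were thus below background and both control arrays just above it. The log2 difference was -0.37 ± 0.16 (standard error, 2 arrays a group) and was not called (limma, adjusted p = 0.167). The control arrays averaged 1.10-fold above the background limit of the TAF3 siRNA arrays, a value given without an error. Of 9 measured epithelial and colon markers 0 were called, beside 13.8% of all features. With every probe as its own feature 1 of their 11 probes was called higher. The summed signal of the 9 markers was 47216 and 40659 with TAF3 siRNA against 47915 and 55077 with control siRNA. Fibroblast markers (3 measured) summed to 412 and 454 with TAF3 siRNA and to 544 and 484 with control siRNA, with PDGFRB lower at -0.66 ± 0.15 (adjusted p = 0.0235). Leukocyte and endothelial markers (5 measured, 0 called) summed to 966 and 1312 with TAF3 siRNA and to 906 and 882 with control siRNA. In pooled extracts of a single cell line such as these, fewer cells in a given state and less RNA per cell cannot be told apart.

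Of 16348 features (12250 of them named genes) 2257 were called, 13.8% of those tested, at a Benjamini-Hochberg adjusted p of 0.05 in limma. TAF3 siRNA gave higher signals for 1067 features (6.53%) and lower signals for 1190 (7.28%). The decreases were the larger: 648 features fell at least 2-fold (3.96%) and 299 rose at least 2-fold (1.83%). In 10147 features (62.1%) the arrays of the 2 groups did not overlap. Among them were all 1190 called lower and all 1067 called higher, so a lack of overlap adds no support to a call. The calls were not stable when 1 array was left out, which also leaves fewer arrays to estimate the spread. With replicate 2 of the control siRNA left out 3 features were called, with its replicate 4 left out 104, with replicate 4 of TAF3 siRNA left out 155, and with its replicate 2 left out 2453. The arrays with TAF3 siRNA also differed more from each other (r = 0.984 across features, median SD 0.145 on the log2 scale) than the control pair (r = 0.994, SD 0.101). Among the 1190 features called lower, replicate 4 of TAF3 siRNA lay below replicate 2 in 1036 (87.1%), against 59.0% of all features. Nearest the threshold, COPA was called at 0.53 ± 0.15 (adjusted p = 0.0499), and the unnamed probe ILMN_1811696 lay just past it at -0.66 ± 0.19.

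The 15 genes with the largest decreases include membrane, metabolic and cell cycle genes. Doxorubicin had raised H19 by 5.03 and GALR2 by 5.08 in control cells, a comparison that shares the control arrays. H19, an imprinted long noncoding RNA, had signals of 828 and 109 with TAF3 siRNA, against 6086 and 4374 with control siRNA, a log2 change of -4.06 ± 0.70 (limma adjusted p = 0.0114). GALR2, a receptor for the neuropeptide galanin, had 418 and 112 with TAF3 siRNA, against 4355 and 2885 with control siRNA (-4.00 ± 0.47, adjusted p = 0.00529). In both genes the groups were far apart, and the array of TAF3 siRNA replicate 4 was several-fold dimmer than replicate 2. CBS, the first enzyme of transsulfuration, had 403 and 100 with TAF3 siRNA, against 1682 and 1881 with control siRNA (-3.10 ± 0.48). LAMP3, a lysosomal membrane protein, had 806 and 237 with TAF3 siRNA, against 3790.0 and 4052 with control siRNA (-3.09 ± 0.44). SORCS2, a sorting receptor of the sortilin family, had 213 and 65.7 with TAF3 siRNA, against 989.7 and 1204 with control siRNA (-3.15 ± 0.42), with replicate 4 of TAF3 siRNA below background. All 3 repeat the same order, with replicate 4 lowest and the control arrays close together. The drop was of like size on both arrays for LFNG, a glycosyltransferase that modifies Notch receptors, with 126 and 105 with TAF3 siRNA, against 1128 and 1220.3 with control siRNA (-3.28 ± 0.33), although its other kept probe changed by -0.36. KRT80, a type II keratin, had 529 and 434 with TAF3 siRNA, against 4617 and 4312 with control siRNA (-3.16 ± 0.71, adjusted p = 0.0235) and its untreated arrays spread from 241 to 1674. The call of KRT80 was lost with any 1 of the 4 arrays left out. TK1, the S-phase thymidine kinase, had 1616 and 1332 with TAF3 siRNA, against 10203 and 7869 with control siRNA (-2.56 ± 0.27, adjusted p = 0.00373). SLC4A11, a membrane transporter, DPYSL4, a dihydropyrimidinase-like protein, HCFC1R1, which binds the cell cycle cofactor HCF-1, ACHE, acetylcholinesterase, CRIP1, a LIM domain protein, and CYSRT1 complete the set, with changes between -2.98 and -2.57.

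**Figure D1:**
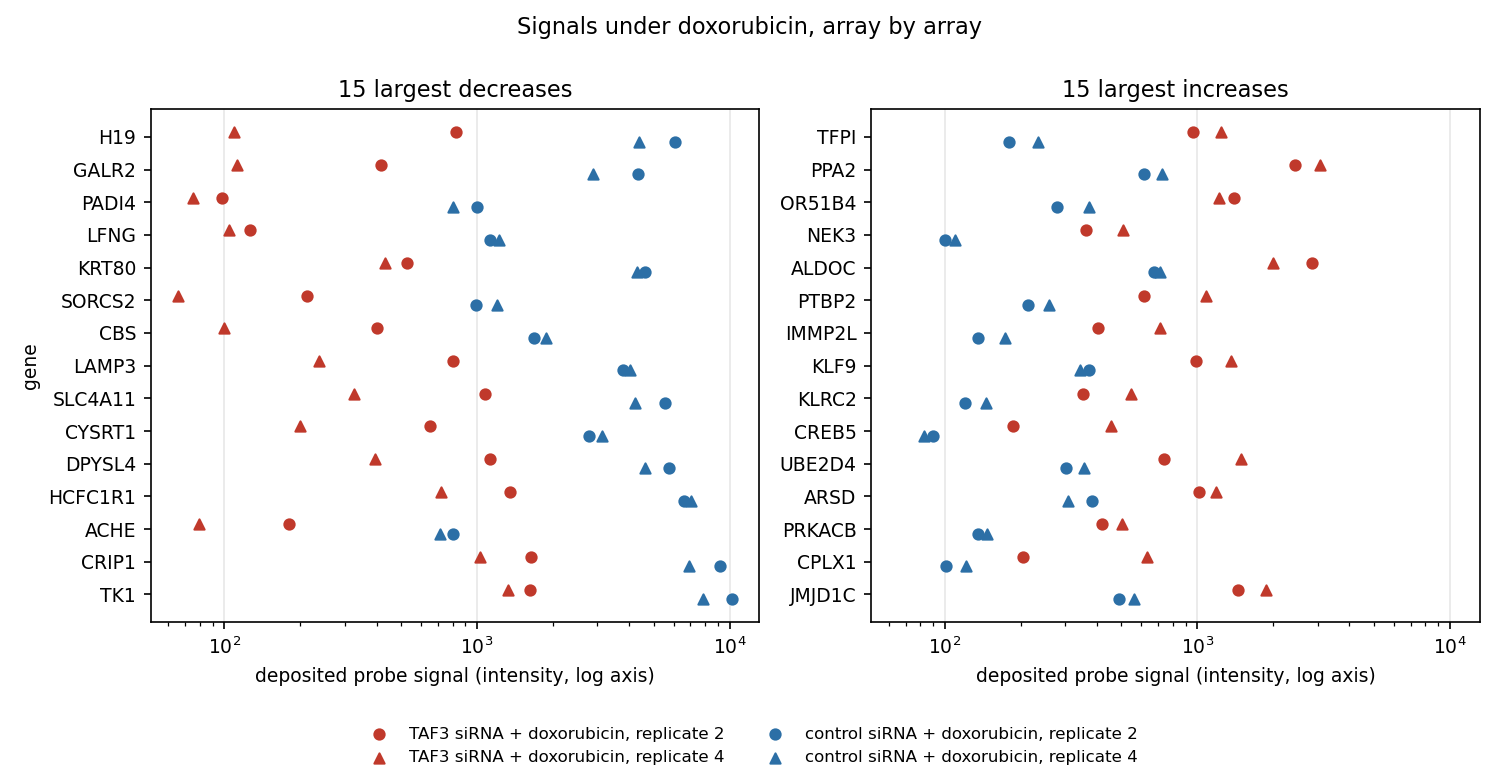
Deposited probe signals (log axis) on the 4 doxorubicin arrays for the 15 largest decreases (left) and the 15 largest increases (right), 1 point per array, TAF3 siRNA in red and control siRNA in blue. In every gene shown the 2 red points lie on one side of the 2 blue points, as the rule for naming these genes required. H19 has the widest gap between its red points, at 828 and 109.

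The largest increases were smaller, and none exceeded 2.50 on the log2 scale. TFPI, the inhibitor of the tissue factor pathway of coagulation, had signals of 964 and 1239 with TAF3 siRNA, against 180.1 and 234 with control siRNA, a change of 2.50 ± 0.34 (limma adjusted p = 0.00737), while the least changed of its 3 kept probes gave 0.52. ALDOC, a glycolytic aldolase, had 2844 and 1999.6 with TAF3 siRNA, against 675 and 710.3 with control siRNA (1.91 ± 0.24, adjusted p = 0.00611). KLF9, a Krüppel-like transcription factor, had 985 and 1353 with TAF3 siRNA, against 371 and 342 with control siRNA (1.80 ± 0.21, adjusted p = 0.00524). All 3 were separated by more than the spread of either pair, and a lack of overlap was shared by every called feature. NEK3, a NIMA-related kinase, had 361 and 509 with TAF3 siRNA, against 99.8 and 109.9 with control siRNA (2.08 ± 0.22), and JMJD1C, a protein of the jumonji demethylase family, had 1450.1 and 1877 with TAF3 siRNA, against 489 and 561 with control siRNA (1.75 ± 0.24). The 3 kept probes of JMJD1C ran from 0.0029 to 1.82. CPLX1, a complexin that regulates vesicle fusion, had 203 and 634 with TAF3 siRNA, against 101 and 122 with control siRNA (1.76 ± 0.45), so its 2 arrays with TAF3 siRNA differed several-fold. PPA2, a mitochondrial pyrophosphatase, had 2425 and 3060.3 with TAF3 siRNA, against 615 and 724 with control siRNA (2.15 ± 0.22), but its other kept probe gave -0.21. Such disagreement was found in 52 of the 552 called genes with several kept probes. The others were OR51B4, an olfactory receptor gene, PTBP2, a splicing regulator, IMMP2L, a mitochondrial inner membrane peptidase, KLRC2, a natural killer cell receptor, CREB5, a bZIP factor, UBE2D4, a ubiquitin conjugating enzyme, ARSD, a sulfatase, and PRKACB, a catalytic subunit of protein kinase A, between 1.76 and 2.10.

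Called whichever of the 4 doxorubicin arrays was left out were 3 features, all lower (0.0184% of those tested). PADI4, an enzyme that converts arginine in histones and other proteins to citrulline, had signals of 97.9 and 75.0 with TAF3 siRNA, against 998 and 806 with control siRNA (-3.31 ± 0.19, limma adjusted p = 0.000482). Replicate 4 of TAF3 siRNA was below background and replicate 2 just above it, and the untreated signals were 79.7 and 68.6 with TAF3 siRNA, against 69.4 and 75.5 with control siRNA, all below background. PADI4 was detected on 3 arrays, so it was tested with the filter of 2 arrays used here and not with a filter of 4. PADI3, the other measured member of the family, had 112 and 82.9 with TAF3 siRNA, against 319.7 and 300.1 with control siRNA (-1.59 ± 0.17, adjusted p = 0.00438). ZBED2, a zinc finger protein of the BED family, had 108 and 88.0 with TAF3 siRNA, against 498 and 731 with control siRNA (-2.55 ± 0.22, adjusted p = 0.00325). ZBED2 differed without the drug as well, with 78.5 and 65.5 with TAF3 siRNA, against 209 and 270.3 with control siRNA (-1.74). The last feature was the unnamed probe ILMN_1661628, with 96.3 and 89.3 with TAF3 siRNA, against 336 and 399.7 with control siRNA (-1.89 ± 0.15).

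Genes of mitosis were lower with TAF3 siRNA. Over 4 lists (kinases and phosphatases of G2/M, kinesins, cyclins with the anaphase-promoting complex and checkpoint, and centromere, spindle and cytokinesis), 33 of 67 measured members were called lower (49.3%) and 0 higher, beside 7.28% of all features called lower and 6.53% called higher. Their median log2 change was -0.81, beside 0.03 over all features tested. With 1 array left out the median of these members ran from -0.99 to -0.67. The list of centromere, spindle and cytokinesis genes had the most calls, 17 of 25. With 1 array left out the number called was 0 (control siRNA replicate 2), 4 (its replicate 4), 9 (TAF3 siRNA replicate 4) and 21 (its replicate 2). CDK1, the kinase that drives entry into mitosis, had 969 and 977 with TAF3 siRNA, against 2566 and 2388 with control siRNA (-1.30 ± 0.18, limma adjusted p = 0.00749). PKMYT1, which phosphorylates and inhibits CDK1, had 674 and 386 with TAF3 siRNA, against 2899 and 2634 with control siRNA (-2.38 ± 0.49, adjusted p = 0.0186). AURKB, the kinase of the chromosomal passenger complex, had 650.3 and 603 with TAF3 siRNA, against 2190.3 and 1772 with control siRNA (-1.58 ± 0.27, adjusted p = 0.0114). Both TAF3 siRNA arrays of CDK1 and AURKB were nearly equal. CDCA3, which promotes degradation of the CDK1 inhibitor WEE1, had 219.9 and 253 with TAF3 siRNA, against 1464 and 982 with control siRNA (-2.27 ± 0.27, adjusted p = 0.00534). CCNA2, cyclin A2, had 668 and 644 with TAF3 siRNA, against 1496 and 1584 with control siRNA (-1.15 ± 0.21, adjusted p = 0.0137), and CCNB2, cyclin B2, had 753 and 862 with TAF3 siRNA, against 1888 and 1740.2 with control siRNA (-1.08 ± 0.21, adjusted p = 0.0149). The motor KIFC1 (-1.83 ± 0.25), the centromeric histone variant CENPA (-1.07 ± 0.18) and the passenger protein BIRC5, also called survivin (-1.62 ± 0.29), fell too, whereas TPX2, a spindle assembly factor, had -0.35 ± 0.22 (adjusted p = 0.332).

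Genes of DNA replication were lower in part, again beside 7.28% of all features called lower and 6.53% called higher. In the list of licensing and fork proteins 17 of 33 members fell and 0 rose (median -0.75), and in homologous recombination and the Fanconi pathway 7 of 16 fell and 0 rose (median -0.69). With nucleotide supply added, 29 of 64 members fell and 2 rose, and with 1 array left out the number called was 20, 2, 0 and 2 (TAF3 siRNA replicates 2 and 4, control siRNA replicates 2 and 4). GINS2, a subunit of the replicative helicase, had 969 and 1077 with TAF3 siRNA, against 5055 and 3430.4 with control siRNA (-1.97 ± 0.42, limma adjusted p = 0.0208). CDT1, which loads that helicase at origins, had 354 and 442 with TAF3 siRNA, against 1175 and 1028 with control siRNA (-1.40 ± 0.28, adjusted p = 0.0163). POLA2, a subunit of the primase complex, had 479 and 497 with TAF3 siRNA, against 1162 and 1102 with control siRNA (-1.15 ± 0.20, adjusted p = 0.0117). In each of them the TAF3 siRNA arrays agreed closely and, as in every feature called lower, lay below both control arrays. RRM1, the large subunit of ribonucleotide reductase, had 4946 and 4553 with TAF3 siRNA, against 12362 and 9990.0 with control siRNA (-1.13 ± 0.16, adjusted p = 0.00779). Its p53-inducible partner RRM2B had 2095 and 809.9 with TAF3 siRNA, against 2529.8 and 2297 with control siRNA (-0.81 ± 0.35, adjusted p = 0.157), with replicate 4 of TAF3 siRNA far below the other arrays. The 2 genes that rose, PPAT (1.05 ± 0.27) and PAICS (0.74 ± 0.18), encode enzymes of purine synthesis. RAD51C, a recombinase paralog, had 4028 and 1837 with TAF3 siRNA, against 7940.3 and 8330.1 with control siRNA (-1.50 ± 0.30), and RAD54L, a recombination motor, had 223 and 180.4 with TAF3 siRNA, against 598 and 537 with control siRNA (-1.40 ± 0.23). CHEK1, the kinase of the replication checkpoint, had 617 and 791 with TAF3 siRNA, against 676 and 686 with control siRNA (0.13 ± 0.22, adjusted p = 0.747). Among 19 transcription factors and regulators of the E2F and RB system 3 fell and 1 rose, with 2 called without TAF3 siRNA replicate 4 or control siRNA replicate 4 and 0 without control siRNA replicate 2. E2F2, an activator E2F, had 616 and 519 with TAF3 siRNA, against 2251 and 1903 with control siRNA (-1.81 ± 0.17, adjusted p = 0.00325), FOXM1, the activator of mitotic genes, had 229 and 296 with TAF3 siRNA, against 834 and 777 with control siRNA (-1.53 ± 0.19), CCND3, cyclin D3, had -1.28 ± 0.24 and E2F5, a repressor E2F, had 1.44 ± 0.22.

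The medians of these cell cycle lists lay on the other side of 0 without the drug. The median change of the mitosis lists was 0.20 untreated, where the arrays are other than those above, and that of the replication lists 0.32. The doxorubicin response, which shares arrays with the comparison above, had a median of -1.47 with TAF3 siRNA and -0.45 with control siRNA over the mitosis lists, with 54 of 67 members called lower with TAF3 siRNA and 15 with control siRNA. Over all features 2.58% were called lower by the drug with TAF3 siRNA and 8% with control siRNA. Over the replication lists it was -0.95 with TAF3 siRNA and 0.12 with control siRNA, with 32 members called lower with TAF3 siRNA and 4 with control siRNA. CCNA2 changed by -2.39 with TAF3 siRNA and -1.01 with control siRNA, and TK1 by -1.37 with TAF3 siRNA and 1.12 with control siRNA. The difference between the 2 responses, tested gene by gene as an interaction, was called for 0 of these members.

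**Figure D2:**
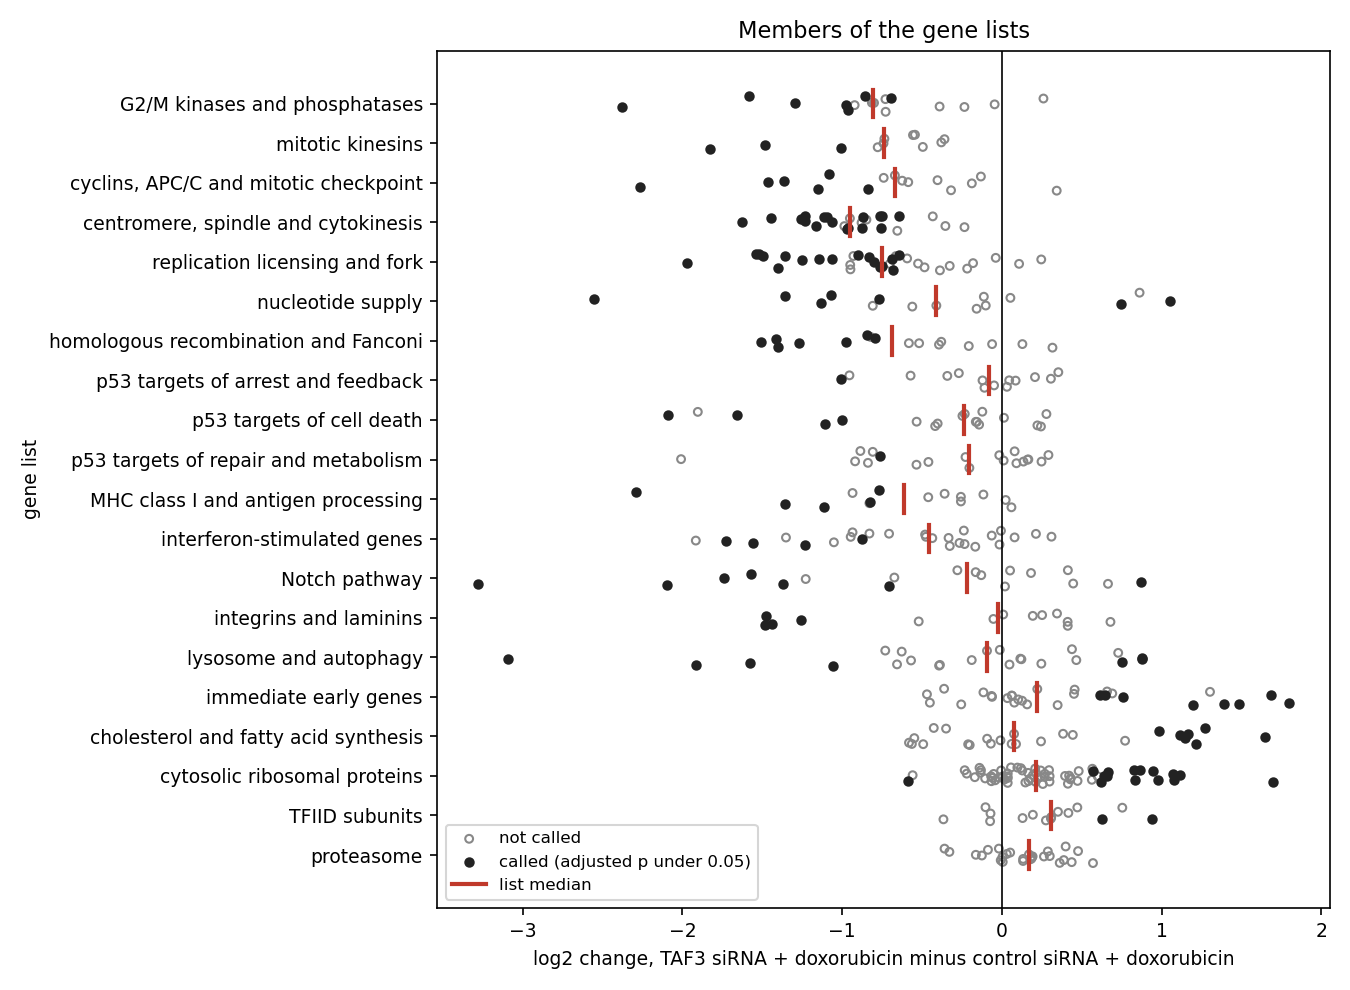
Log2 change for every measured member of 20 gene lists, TAF3 siRNA with doxorubicin minus control siRNA with doxorubicin, 1 point per gene, filled where called and with the list median in red. All medians of the 4 mitosis lists lie between -0.95 and -0.67, those of the p53 target lists between -0.24 and -0.08, and that of cytosolic ribosomal proteins at 0.21.

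Promoter sequences from RefSeq (GRCh38.p14) are shown for 8 of the named genes because members that moved together can be compared there. Each line gives the 120 bases before the annotated start, 5′ to 3′ on the gene's own strand, with capitals marking a match to a searched motif. PADI4 and ZBED2 are among the calls that held with any array left out. PADI4 (chr1:17308077-17308196, plus strand) has TATAAA 30 bases before the start, and ZBED2 (chr3:111595347-111595466, minus strand) has none of the motifs.
PADI4: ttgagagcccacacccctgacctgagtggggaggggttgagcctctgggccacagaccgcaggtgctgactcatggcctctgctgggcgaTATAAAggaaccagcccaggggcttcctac
ZBED2: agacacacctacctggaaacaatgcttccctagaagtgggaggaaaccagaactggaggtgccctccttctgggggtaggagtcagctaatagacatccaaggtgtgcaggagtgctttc
Of the cell cycle genes, E2F2 (chr1:23531234-23531353, minus strand) has the E2F-type site TTTGGCGC at 42 bases, CDCA3 (chr12:6851287-6851406, minus strand) has CCAAT at 37 bases, CCNA2 (chr4:121823884-121824003, minus strand) has it reversed as ATTGG at 56 bases, and TK1 (chr17:78187205-78187324, minus strand) has TTTAAA at 98 bases.
E2F2: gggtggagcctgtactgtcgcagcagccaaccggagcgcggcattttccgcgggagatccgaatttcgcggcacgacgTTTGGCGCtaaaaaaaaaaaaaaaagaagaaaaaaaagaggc
CDCA3: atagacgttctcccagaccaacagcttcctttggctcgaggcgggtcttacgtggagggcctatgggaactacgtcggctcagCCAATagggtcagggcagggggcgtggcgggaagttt
CCNA2: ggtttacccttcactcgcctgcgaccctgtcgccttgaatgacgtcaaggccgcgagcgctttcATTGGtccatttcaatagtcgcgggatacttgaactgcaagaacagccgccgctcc
TK1: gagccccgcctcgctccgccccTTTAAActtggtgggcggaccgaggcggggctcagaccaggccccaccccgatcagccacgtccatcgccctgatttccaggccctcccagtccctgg
DUSP1 (chr5:172771196-172771315, minus strand), an immediate early gene, and HMGCS1 (chr5:43313413-43313532, minus strand), a gene of cholesterol synthesis, both rose. They hold TATAAA 30 and 29 bases before the start. Further up, DUSP1 has the reverse of TTTGAA, and HMGCS1 has that of CCAAT.
DUSP1: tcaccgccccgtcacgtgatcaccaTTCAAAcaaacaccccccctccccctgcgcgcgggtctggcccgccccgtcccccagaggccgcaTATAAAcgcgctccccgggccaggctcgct
HMGCS1: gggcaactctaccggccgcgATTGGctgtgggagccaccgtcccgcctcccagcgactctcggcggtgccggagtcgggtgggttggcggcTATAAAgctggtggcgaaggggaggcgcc

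The motifs were counted on both strands in the 250 bases before the start of the 9938 measured genes that had a RefSeq promoter. CCAAT was found in 42 of 56 promoters of the mitosis lists (75.0%), in 35.5% of genes called lower and in 35.5% of all 9938. TTTGAA or TTTAAA, the core of the CHR element of mitotic genes, was found in 35 of those 56 (62.5%), in 11.6% of genes called lower and in 14.7% of all. An E2F-type site (TTTGGCGC, TTTCCCGC, TTTCGCGC or TTTGCCGC) was found in 22.8% of promoters of the replication lists, in 5.98% of genes called lower and in 4.44% of all. TATAAA was found in 5.11% of promoters of genes called lower, in 7.07% of those called higher and in 5.91% of all, and in 10.7% of those called higher by at least 2-fold (23 of 214). Within 40 bases of the start, on the gene's own strand, the shares were 1.49% for called lower, 2.23% for called higher and 2.03% for all. For those called higher by at least 2-fold the share was 5.14% (11 of 214). The p53 site was searched only as an exact consensus, with no spacer and no mismatch allowed. It was found in 1 of the 9938 and in 0 of 38 promoters of the p53 target lists. A search this strict cannot tell whether these genes have p53 sites. The median GC content was 66.4% for genes called lower, 64.0% for genes called higher and 64.8% for all. These are counts of letters and show no binding.

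Direct targets of p53 were mostly not called. Of 51 measured genes in 3 lists 6 were lower (11.8%, beside 7.28% of all features) and 0 higher, with a median of -0.16. Several well known members had like signals with both siRNAs. CDKN1A, the inhibitor of cyclin-dependent kinases, had 32362 and 26645 with TAF3 siRNA, against 28392 and 31799.9 with control siRNA (-0.12 ± 0.21, limma adjusted p = 0.747). GADD45A, a growth arrest gene, had 9825 and 6736 with TAF3 siRNA, against 7705 and 7447 with control siRNA (0.21 ± 0.23), and GDF15, a secreted stress cytokine, had 40348 and 35743 with TAF3 siRNA, against 38027 and 34035 with control siRNA (-0.02 ± 0.29). Groups overlapped in all 3. GDF15 and CDKN1A were about as bright as the ribosomal protein gene RPS2 (41742 and 29635 with TAF3 siRNA, against 30436 and 32813 with control siRNA). Whether signals this high can still show a difference was not tested. MDM2, the ubiquitin ligase of p53, had 0.35 ± 0.18 (adjusted p = 0.222), BAX, an effector of apoptosis, 0.22 ± 0.26 (adjusted p = 0.627), and the repair gene XPC 0.29 ± 0.16 (adjusted p = 0.275). CDIP1, a p53-induced apoptosis gene, had 173 and 94.3 with TAF3 siRNA, against 665 and 492 with control siRNA (-2.09 ± 0.26, adjusted p = 0.00611). PIDD1, the scaffold of the PIDDosome, had 1075 and 309 with TAF3 siRNA, against 1858 and 1980.4 with control siRNA (-1.66 ± 0.42, adjusted p = 0.0355). SFN, the 14-3-3 sigma protein that enforces G2 arrest, had 13468 and 7025 with TAF3 siRNA, against 18807 and 20866 with control siRNA (-1.01 ± 0.26, adjusted p = 0.0356). Those 3 and SCN3B (-1.11 ± 0.19), DDB2 (-0.76 ± 0.19) and TNFRSF6B were the genes that fell, and in the 3 lists the number called was 0 without control siRNA replicate 2, 1 without TAF3 siRNA replicate 4, 2 without control siRNA replicate 4 and 15 without TAF3 siRNA replicate 2, where the median was -0.39.

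Several p53 targets were split by the arrays of TAF3 siRNA. TP53I3, a quinone oxidoreductase, had 9930.3 and 1674 with TAF3 siRNA, against 15812 and 16268 with control siRNA, so replicate 2 lay within 2-fold of the control arrays and replicate 4 far below them (-1.90 ± 0.67, limma adjusted p = 0.0932). PRODH, proline dehydrogenase, had 925 and 162 with TAF3 siRNA, against 1866 and 1447 with control siRNA (-2.01 ± 0.60, adjusted p = 0.0555), and TIGAR, a fructose bisphosphatase, had 3372 and 999 with TAF3 siRNA, against 3283 and 4026 with control siRNA (-0.89 ± 0.44, adjusted p = 0.210). The drug raised TP53I3 by 3.57 with TAF3 siRNA and by 5.08 with control siRNA, PRODH by 1.61 with TAF3 siRNA and 3.45 with control siRNA, and CDKN1A by 2.23 with TAF3 siRNA and 2.28 with control siRNA. Over the 3 lists the median response was 1.07 with TAF3 siRNA and 1.49 with control siRNA, with 27 of 51 called higher with TAF3 siRNA (beside 2.07% of all features) and 42 with control siRNA (beside 9.08%). These responses share arrays with the comparison between siRNAs.

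**Figure D3:**
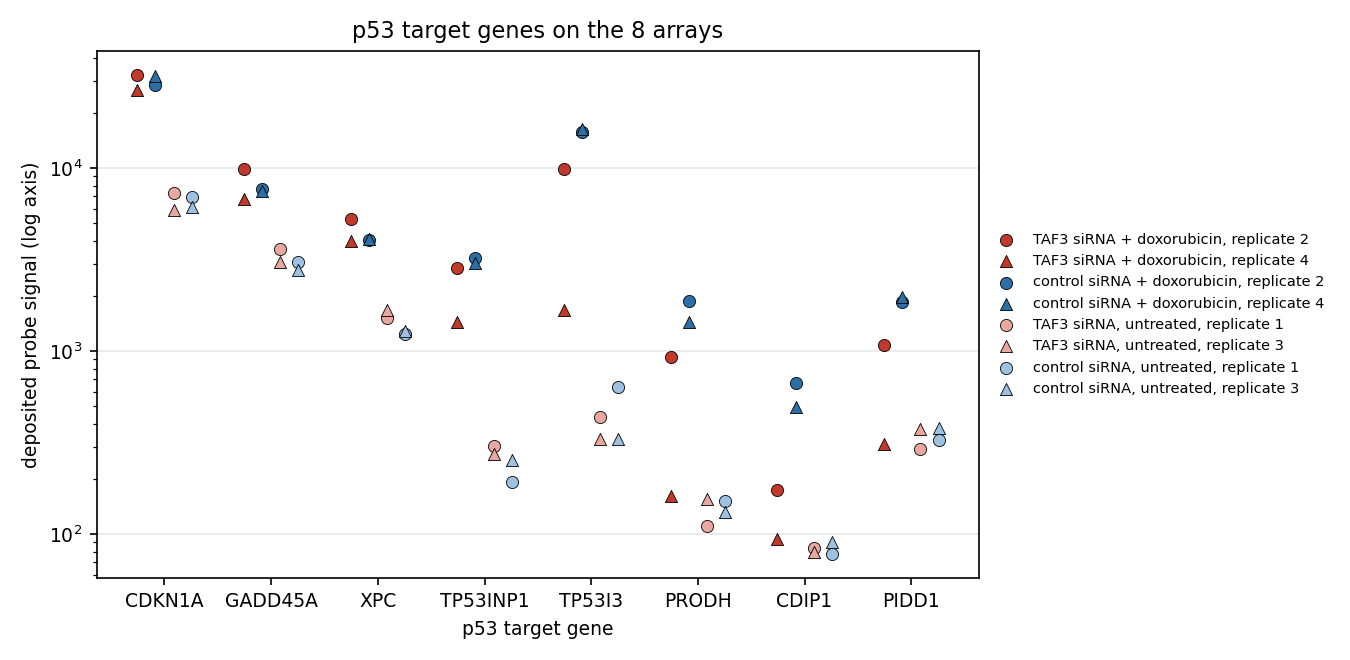
Deposited probe signals (log axis) of 8 p53 target genes, picked after their values were seen to show both kinds, on all 8 arrays, 1 point per array. CDKN1A, GADD45A and XPC have like signals with both siRNAs under doxorubicin, while for TP53I3, PRODH and PIDD1 replicate 4 of TAF3 siRNA (dark red triangle) lies well below the other dark points.

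Notch pathway genes included several decreases. Of 18 measured members 6 fell (33.3%) and 1 rose, beside 7.28% of all features called lower and 6.53% called higher, with a median of -0.22. The number called was 0 without control siRNA replicate 2, and 2 without its replicate 4 or without TAF3 siRNA replicate 4. All 3 fringe enzymes, which add sugars to Notch receptors, were lower: LFNG as given above, MFNG with 188 and 117 with TAF3 siRNA, against 573 and 481 with control siRNA (-1.74 ± 0.22, limma adjusted p = 0.00611) and RFNG with 381 and 118 with TAF3 siRNA, against 824 and 1094 with control siRNA (-2.10 ± 0.50, adjusted p = 0.0303). The receptor NOTCH3 had 275 and 147 with TAF3 siRNA, against 607 and 667 with control siRNA (-1.57 ± 0.37), and the ligands JAG2 (-1.37 ± 0.28) and DLL1 (-0.71 ± 0.20) fell as well. RBPJ, the DNA-binding partner of Notch, rose by 0.87 with signals of 983 and 869.8 with TAF3 siRNA, against 534 and 547 with control siRNA, while its 3 kept probes ranged from -0.04 to 0.87. NOTCH1 had -0.67 ± 0.25 (adjusted p = 0.107) and NOTCH2 0.45 ± 0.16 (adjusted p = 0.0996).

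Adhesion and barrier genes had calls in 1 direction where 1 probe stood for each gene. Among 14 integrins and laminins 4 fell and 0 rose (median -0.02), and among 23 keratins and junction genes 4 fell and 0 rose (median -0.28), beside 7.28% of all features called lower. Each had 0 calls without either control array, and without TAF3 siRNA replicate 4 there were 1 among the integrins and laminins and 0 among the keratins and junction genes. LAMA5, a laminin chain of epithelial basement membranes, had 4122 and 2596 with TAF3 siRNA, against 9862 and 8833 with control siRNA (-1.44 ± 0.20, limma adjusted p = 0.00761). ITGB4, the integrin of hemidesmosomes, had 637 and 276 with TAF3 siRNA, against 1141 and 1329 with control siRNA (-1.48 ± 0.30, adjusted p = 0.0172), and ITGA3, a laminin receptor subunit, had 2884 and 1483 with TAF3 siRNA, against 5880.1 and 6407 with control siRNA (-1.48 ± 0.34). In both integrins replicate 4 of TAF3 siRNA was the lowest array. The plakins EVPL (-1.16 ± 0.18) and PPL (-1.18 ± 0.32), which link keratin to desmosomes, and KRT15 (-1.11 ± 0.21) fell with KRT80. KRT18, a keratin of simple epithelia, had 655 and 647 with TAF3 siRNA, against 341 and 429 with control siRNA (0.88 ± 0.27, adjusted p = 0.0659). Its other kept probe gave 1.59. With every probe as its own feature 5 of 32 keratin and junction probes were called lower and 1 higher. CDH1, E-cadherin, had -0.35 ± 0.39 (adjusted p = 0.602).

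Antigen presentation and interferon genes were lower in part. Of 14 measured genes of MHC class I and antigen processing 5 fell and 0 rose (median -0.62), and of 26 interferon-stimulated genes 4 fell and 0 rose (median -0.46), beside 7.28% of all features called lower. Both lists had 0 calls without TAF3 siRNA replicate 4 or without either control array, and the interferon list had 7 without TAF3 siRNA replicate 2. The untreated medians, from other arrays, were -0.48 and -0.80. HLA-B had 1147 and 589 with TAF3 siRNA, against 4845 and 3642 with control siRNA (-2.29 ± 0.35, limma adjusted p = 0.00883). Probes of HLA genes can share sequence with one another, so their split between genes is uncertain. TAPBP, the chaperone that loads peptides on MHC class I, had 575 and 498 with TAF3 siRNA, against 965 and 1037 with control siRNA (-0.83 ± 0.20), and PSMB10, an immunoproteasome subunit, had 2669 and 2166 with TAF3 siRNA, against 4036 and 4809 with control siRNA (-0.77 ± 0.19). The 3 kept probes of TAPBP ran from -0.83 to 0.0085. OAS3, an antiviral oligoadenylate synthetase, had 173 and 153 with TAF3 siRNA, against 651 and 511 with control siRNA (-1.73 ± 0.25, adjusted p = 0.00804), and ISG15, a ubiquitin-like modifier, had 4837 and 2387 with TAF3 siRNA, against 10954 and 10693 with control siRNA (-1.56 ± 0.40, adjusted p = 0.0369). Without the drug ISG15 differed by -1.36 and HLA-B by -1.26. BST2, which tethers viruses to cells, was below background on both TAF3 siRNA arrays, with 79.7 and 74.7 with TAF3 siRNA, against 225 and 194 with control siRNA. It was not called (limma adjusted p = 0.0609), and the control arrays averaged 2.34-fold above the background limit.

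Lysosomal genes moved both ways. Of 23 genes of lysosome and autophagy 4 fell and 3 rose (median -0.09), beside 7.28% of all features called lower and 6.53% called higher. Besides LAMP3, the proteases CTSD, with 401 and 365 with TAF3 siRNA, against 1242 and 1166 with control siRNA (-1.58 ± 0.22, limma adjusted p = 0.00737), and CTSA, with 548 and 424 with TAF3 siRNA, against 1056 and 1055 with control siRNA (-1.06 ± 0.19), and the calcium channel MCOLN1 (-1.91 ± 0.42) fell. NPC1, the cholesterol exporter of lysosomes, had 1810.2 and 2362 with TAF3 siRNA, against 1186 and 1232 with control siRNA (0.88 ± 0.24) and rose, as did the autophagy genes ATG5 (0.88 ± 0.24) and GABARAPL1 (0.75 ± 0.19). The list had 0 calls without either control array and 2 without TAF3 siRNA replicate 4.

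Immediate early genes, which cells switch on within minutes of a stimulus, were higher in part. Of 29 measured members 8 rose (27.6%, beside 6.53% of all features) and 0 fell, with a median of 0.22. ZFP36, which destabilises mRNAs, had 3611 and 3868 with TAF3 siRNA, against 1343 and 1179.9 with control siRNA (1.68 ± 0.16, limma adjusted p = 0.00325). DUSP1, a MAP kinase phosphatase, had 2759 and 4520.1 with TAF3 siRNA, against 1528 and 1217 with control siRNA (1.48 ± 0.27, adjusted p = 0.0134). EGR1, a zinc finger transcription factor, had 4226 and 5563 with TAF3 siRNA, against 2501 and 1588 with control siRNA (1.39 ± 0.32, adjusted p = 0.0255). The control arrays of EGR1 were well apart. FOS had 1972 and 1218 with TAF3 siRNA, against 1005 and 521 with control siRNA (1.20 ± 0.33, adjusted p = 0.0464), JUND 0.76 ± 0.15 and MYC 0.64 ± 0.17, whereas JUN had 1.30 ± 0.42 and was not called (adjusted p = 0.0701). Without the drug the same members had a median of -0.27, and FOS differed by -1.82. The number called was 0 without control siRNA replicate 2, and 2 without its replicate 4 or without TAF3 siRNA replicate 4.

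Cholesterol synthesis genes were higher in part. Of 25 measured genes of cholesterol and fatty acid synthesis 7 rose (28.0%, beside 6.53% of all features) and 0 fell, while the list's median was 0.08. HMGCS1, which makes HMG-CoA, had 2904 and 4197 with TAF3 siRNA, against 1487 and 982 with control siRNA (1.64 ± 0.29, limma adjusted p = 0.0125). SQLE, squalene epoxidase, had 2339.8 and 2826 with TAF3 siRNA, against 1031 and 1288 with control siRNA (1.27 ± 0.22, adjusted p = 0.0119), and INSIG1, the sterol-regulated retention protein of the pathway, had 1155 and 1435 with TAF3 siRNA, against 646 and 582 with control siRNA (1.17 ± 0.30, adjusted p = 0.0364). The control arrays were the lower ones in each, as in every feature called higher. MSMO1 (1.21 ± 0.26), CYP51A1 (1.15 ± 0.28) and SC5D (1.11 ± 0.27), enzymes of later steps, and the desaturase SCD (0.99 ± 0.21) made up the rest. The doxorubicin response of the list, which shares these arrays, had a median of -0.38 with TAF3 siRNA and -1.03 with control siRNA, with 0 members called lower with TAF3 siRNA (beside 2.58% of all features) and 16 with control siRNA (beside 8%). All 7 calls were lost without TAF3 siRNA replicate 4 or without either control array.

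Ribosomal protein genes included more increases than the background. Of 67 cytosolic members 14 rose (20.9%, beside 6.53% of all features) and 1 fell (beside 7.28%), with a median of 0.21, and 0 stayed called without TAF3 siRNA replicate 4 or without either control array. RPL4, a protein of the large subunit, had 10301 and 9654 with TAF3 siRNA, against 4806 and 5493 with control siRNA (1.07 ± 0.18, limma adjusted p = 0.0109), and RPS14, of the small subunit, had 18186 and 23402 with TAF3 siRNA, against 10347 and 13559.7 with control siRNA (0.86 ± 0.18, adjusted p = 0.0197). RPL23A fell by 0.59 with 1661 and 1404 with TAF3 siRNA, against 2319 and 2535 with control siRNA. Many of these genes have processed pseudogenes, so probes may read more than 1 locus, and for RPL13 the 2 kept probes gave -0.71 and 1.07. Of 48 mitochondrial ribosomal proteins 3 rose and 0 fell. Their median was 0.09, against -0.023 without control siRNA replicate 2, and -0.0070 with the deposited log2 signals and -0.0090 with median centring, which put the median of all features at -0.024 in place of 0.03.

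TFIID subunits had no called decrease where 1 probe stood for each gene. Of 15 measured TFIID subunits 2 rose and 0 fell (median 0.31), beside 7.28% of all features called lower and 6.53% called higher. With every probe as its own feature 1 of 19 TFIID probes was called lower and 3 higher. The 2 kept probes of TAF6 gave -0.86 and -0.07. With the deposited log2 signals or median centring 0 TFIID subunits were called. TAF5, a scaffold subunit, had 1586 and 1536 with TAF3 siRNA, against 949 and 812 with control siRNA (0.94 ± 0.26, limma adjusted p = 0.0464), and TAF13, a histone-fold subunit, had 317 and 332 with TAF3 siRNA, against 221 and 231 with control siRNA (0.62 ± 0.16, adjusted p = 0.0364). Without the drug TAF5 differed by 1.51. TBP, the TATA-binding subunit, had 977 and 748 with TAF3 siRNA, against 787 and 817 with control siRNA (0.19 ± 0.15, adjusted p = 0.448), and TAF10, a histone-fold partner of TAF3, had 4579 and 3913 with TAF3 siRNA, against 4096 and 4265 with control siRNA (0.13 ± 0.17, adjusted p = 0.674). Of 28 other general factors and RNA polymerase II subunits 4 rose and 1 fell, among them GTF2B (0.60 ± 0.15), POLR2B (0.80 ± 0.17) and, lower, POLR2L (-0.70 ± 0.16). Of 16 genes for enzymes that write or erase H3K4 methylation or for their partner subunits 1 rose, a share near that background. It was the demethylase KDM5B (0.76 ± 0.19, limma adjusted p = 0.0343). None of these calls remained without TAF3 siRNA replicate 4 or without either control array.

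The remaining lists held few calls, which stand beside 7.28% of all features called lower and 6.53% called higher. Glycolysis and hypoxia genes had 4 higher and 1 lower of 32, namely ALDOC, P4HA1 (0.97 ± 0.22), BNIP3L (0.96 ± 0.17), EGLN1 (0.88 ± 0.16) and, lower, ENO2 (-1.68 ± 0.38). The other kept probe of P4HA1 gave -0.30. Targets of ATF4, the factor of the integrated stress response, had 3 higher and 1 lower of 21, with the tRNA synthetases GARS1 (1.26 ± 0.19) and AARS1 (0.76 ± 0.20) higher, CTH (1.33 ± 0.25) higher and CBS lower. Oxidative phosphorylation had 3 higher and 2 lower of 44, splicing factors 3 higher of 33, and heat shock proteins and chaperonins 2 higher of 24. The proteasome (27 measured) and replication-dependent histones (16 measured) had 0 calls. Their medians were 0.17 and 0.44, beside 0.03 over all features. Labelling was primed with oligo(dT), so the histone values cover only transcripts with a poly(A) tail. Without control siRNA replicate 2 or 4 there were 0 calls in these lists, and without TAF3 siRNA replicate 4 there was 1 in each of glycolysis and hypoxia, ATF4 targets and imprinted genes and 0 in the others. Imprinted genes had MEST higher (0.86 ± 0.22) and H19 lower of 10, and IGF2, the neighbour of H19, had 93.4 and 84.0 with TAF3 siRNA, against 158 and 108 with control siRNA (-0.51 ± 0.24, limma adjusted p = 0.185).

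Genes called higher were longer on the genome than genes called lower. By RefSeq the median span from start to end was 44.6 kb for called higher, 18.8 kb for called lower and 28.4 kb for all 12242 named genes with a span. The share called higher was 4.74% among genes under 5 kb, 7.70% among those of 20 to 40 kb and 14.1% among those over 160 kb. The share called lower was 10.1%, 9.66% and 3.34% in the same classes. The median change ran between -0.10 (5 to 10 kb) and 0.18 (over 160 kb), and the median over 160 kb was 0.14 to 0.22 with any 1 array left out. The order held within classes of signal: in the brightest of 3 equal classes 17.6% of those over 80 kb and 6.90% of those under 20 kb were called higher, in the middle class 14.7% and 5.71%, and in the dimmest 4.54% and 1.76%. Without the drug the medians were -0.12 under 5 kb and 0.06 over 160 kb. Genes of a class are not independent replicates, and no test was made.

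**Figure D4:**
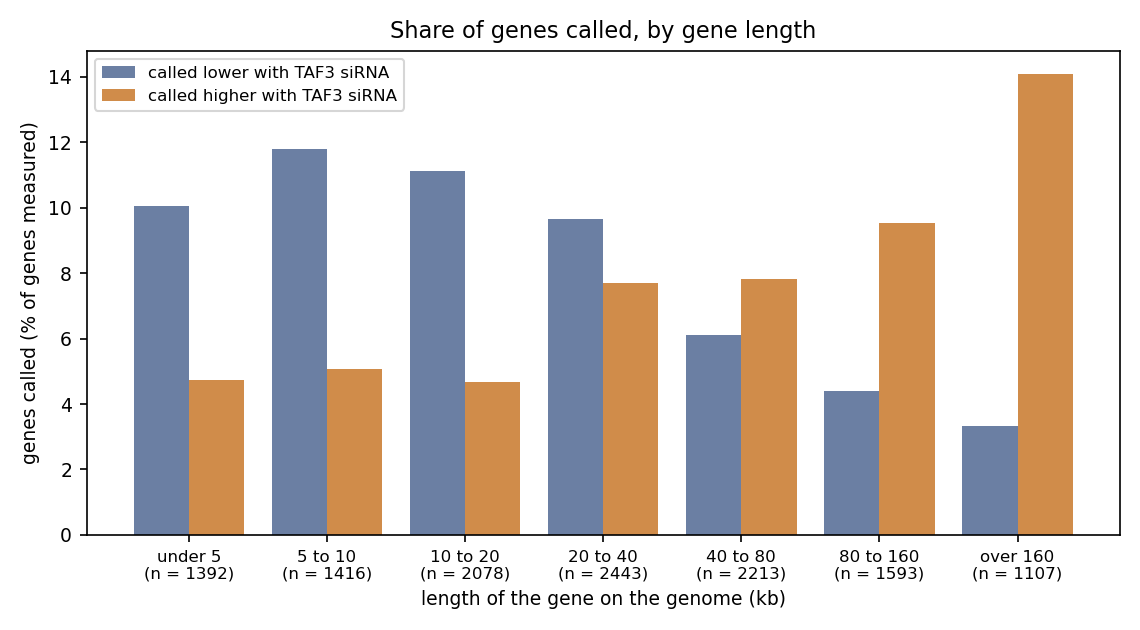
Percent of named genes called lower (left bars) and higher (right bars) with TAF3 siRNA under doxorubicin, in 7 classes of gene length in kb, with the number of genes below each. The share called higher is 4.74% in the shortest class and 14.1% in the longest, and the share called lower is 10.1% and 3.34%.

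The effect of TAF3 siRNA was set beside that in untreated cells, where 0 of 16348 features were called by limma and 1973 had an unadjusted p under 0.05 (smallest adjusted p = 0.141). The untreated arrays are not among those used above. Of the 1190 features called lower under doxorubicin 886 (74.5%) were also lower untreated, and of the 1067 called higher 834 (78.2%) were also higher, against 61.7% with the same sign among all features. The untreated changes of these features were small, with medians of -0.20 and 0.22. The features were called by their change with doxorubicin, and those near background without it could show little effect there. HCFC1R1 differed by -2.74 under doxorubicin and -1.44 without it, and NEK3 by 2.08 under doxorubicin and 0.66 without it. The difference between the 2 effects was called for 6 features (0.0367%; 2424 at an unadjusted p under 0.05). Of these, PADI4, GCHFR, a regulator of GTP cyclohydrolase, and 2 unnamed probes were lower under doxorubicin than the untreated effect gave. ZFP36 and ALDOC were higher, and ALDOC had opposite signs, 1.91 under doxorubicin and -1.09 without it. PADI4 and the unnamed probe ILMN_1874901 were below background on every untreated array, where no effect could be seen. The 6 calls were not stable when 1 doxorubicin array was left out, which also leaves fewer arrays to estimate the spread.

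**Figure D5:**
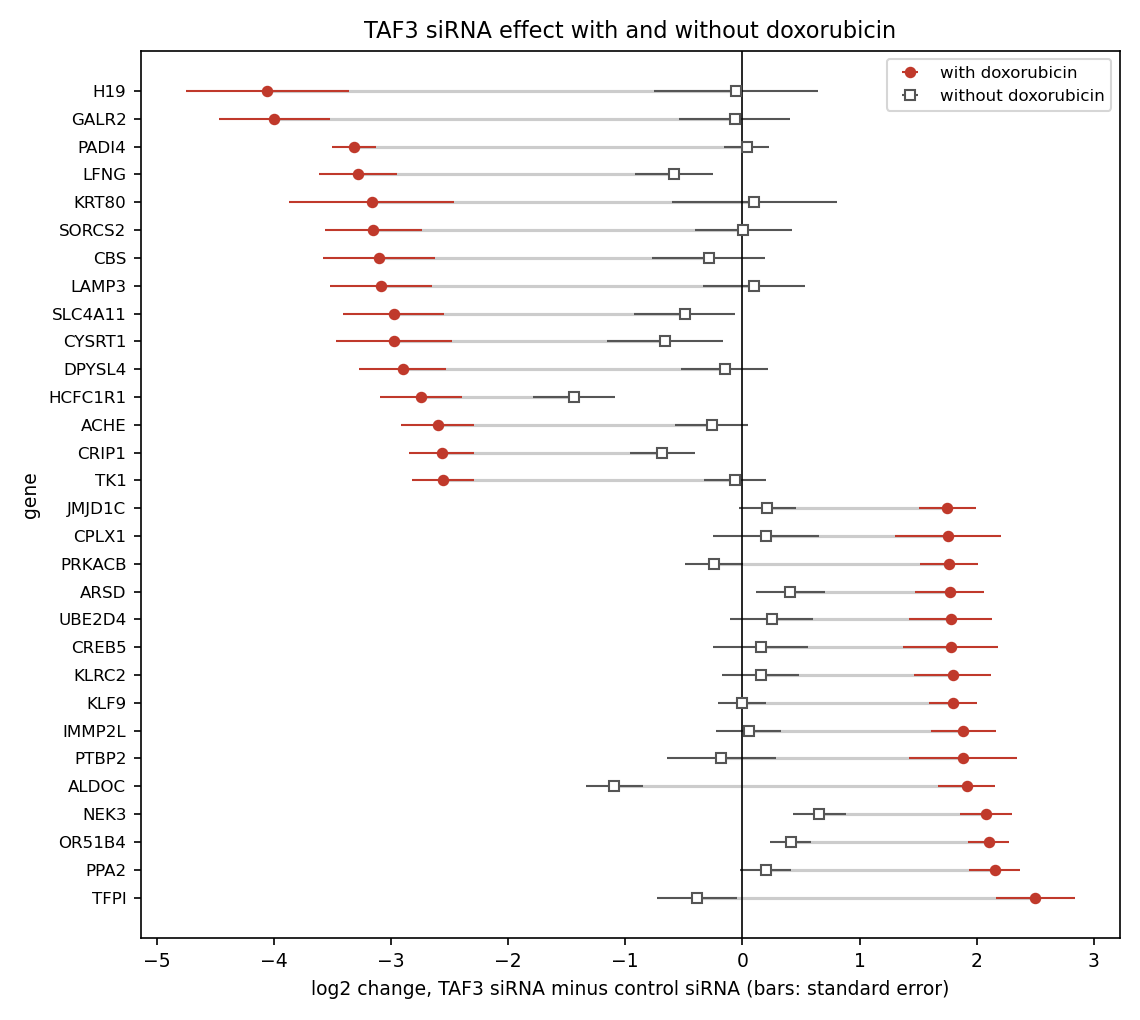
Log2 change with its standard error, TAF3 siRNA minus control siRNA, with doxorubicin (filled red) and without it (open grey), for the 15 largest decreases and 15 largest increases. Most open points lie near 0, but the genes were chosen for large changes with doxorubicin. Without it SORCS2 and PADI4 were below background on every array, where no effect could be seen, and GALR2, CBS and ACHE were near background. Among genes whose 2 points lie on opposite sides of 0 ALDOC has its open point farthest from 0, with 1.91 with the drug and -1.09 without it.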

How the data were processed

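RNA of HCT116 cells was measured on 8 arrays in 4 groups of 2, with groups and replicate numbers from the sample titles. The deposited values are intensity signals per probe on a linear scale. BeadStudio is named, with no version, in the submitters' processing notes. Every array had the same median signal of 73.9 over 48803 probes. A second deposited table has a column of detection p-values that rise with the signal and so are 1 minus a p-value. Its columns name no sample, so it gave only a count of arrays with detection for each probe. The table's 8 columns of signals were left unused. The labelled values hold no control probes, so neqc could not be run.

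The signals were corrected with normexp (offset 50), quantile normalized and put on the log2 scale. A probe was kept if detected (p under 0.05) on 2 or more arrays (20628 probes), and the brightest kept probe stood for its gene. Of the 48803 probes 28098 had 1 symbol, 13 several and 20692 none in the platform annotation. This left 16348 features. In limma 3.58.1 (R 4.3.3) a model of 4 group means used all 8 arrays, with 4 residual and 4.98 prior degrees of freedom. Benjamini-Hochberg adjustment ran over all features, with calls at 0.05. A value a ± b is a log2 change with its standard error, which pools the spread of all 4 groups. Where both arrays of a group lay below background, the fold sets the other group's mean against the background limit and carries no standard error. The number of arrays limits the precision.

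Gene lists (36) are described by counts and medians beside those of all features, without a set test. The members and lists were chosen with earlier results of these data known. Named were TAF3, the 15 largest called increases and decreases whose arrays did not overlap, up to 6 members of each list with the smallest p, the genes called with any array left out, and those called in the interaction. Other list members are given with their values. Promoters and gene spans are from RefSeq (GRCh38.p14). Tested on simulated data of 16348 features, the comparison under doxorubicin recovered 57 of 100 changes of 1 log2 unit and 99 of 100 changes of 2, with 10 false calls. The simulated noise was independent between features and arrays, and a feature had the same spread in all groups. On the real arrays with doxorubicin the median SD was 0.145 with TAF3 siRNA and 0.101 with control siRNA. The simulated rates therefore do not measure how reliable the real calls are. Alternatives were the deposited log2 signals, median centring, an offset of 16, other detection filters, every probe, the 4 doxorubicin arrays alone, an intensity trend, each array left out, a 2-fold threshold and a replicate block.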

Additional observations from a re-analysis of the deposited data

Results flagged for a closer look

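In 6 features the effect of TAF3 siRNA under doxorubicin differed from its effect without the drug by the interaction test of limma over 16348 features. All differences are log2 values, with doxorubicin minus without. For PADI4 the difference was -3.35 ± 0.27 (adjusted p = 0.00883). Its untreated signals were 79.7 and 68.6 with TAF3 siRNA, against 69.4 and 75.5 with control siRNA, all below background. No effect of the siRNA could be seen at that level, so the difference mostly repeats the change under doxorubicin. The adjusted p was 0.0471 for each of the other 5. ALDOC differed by 3.01 ± 0.34, with signals of 2844 and 1999.6 with TAF3 siRNA, against 675 and 710.3 with control siRNA under doxorubicin and of 2248 and 3663 with TAF3 siRNA, against 6869 and 4863 with control siRNA without it. ZFP36 differed by 1.95 ± 0.23, with untreated signals of 1950.0 and 1983 with TAF3 siRNA, against 2162 and 2112 with control siRNA. GCHFR differed by -1.69 ± 0.21, with signals of 137 and 119 with TAF3 siRNA, against 357 and 384 with control siRNA under doxorubicin and of 108 and 114 with TAF3 siRNA, against 95.8 and 87.6 with control siRNA without it. The unnamed probes ILMN_1661628 and ILMN_1874901 differed by -1.84 ± 0.21 and -1.78 ± 0.21. Like PADI4, ILMN_1874901 was below background on every untreated array. Without TAF3 siRNA replicate 4, or without either control array with doxorubicin, 0 of these calls were made.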

How the results depend on the processing

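All 2257 calls kept their sign with the deposited log2 signals, with median centring and with an offset of 16. With an array left out the sign was fixed in advance, since in each called feature the arrays of the 2 groups did not overlap. The filter of detection on at least 4 arrays tested 2162 of the 2257 and left out PADI4. The number called was 1635 with the deposited log2 signals and 1658 with median centring, where 39.0% and 38.6% of calls were higher against 47.3%. The median of all features moved by at most 0.053 under any scaling. With 1 array left out the number ranged from 3 to 2453: 155 without TAF3 siRNA replicate 4, 104 without control siRNA replicate 4 and 3 without control siRNA replicate 2. It was 947 for calls of at least 2-fold, and between 1965 and 3080 with the other filters and fits. Of 3 named genes that were not called, GDF15 changed sign with the deposited log2 signals (0.078) and with median centring (0.076), and ran from -0.059 to 0.026 with 1 array left out. GADD45A ran from -0.058 to 0.47 and CHEK1 from -0.12 to 0.38 with 1 array left out. Of 184 named genes, those that lost their call with 1 array left out numbered 27 to 159. Without control siRNA replicate 2 the only calls left were PADI4, ZBED2 and ILMN_1661628. The difference between effects with and without doxorubicin, 6 calls, gave 1 with the deposited log2 signals or median centring, 22 without a detection filter, 0 with detection on at least 4 arrays, 86 with an intensity trend, and 0 to 324 with 1 array left out. The cause was not tested. All but the first of these alternatives for the difference were chosen after the data were seen.

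The replicate numbers are shared by the groups, but nothing says that a number marks a common culture or day. Deviations of same-numbered arrays had r = 0.21 across features with doxorubicin and -0.03 without. With the replicate block 2361 features were called under doxorubicin and 2 in the difference between effects. With the crossed replicate block, added after the data were seen, the numbers were 1578 and 3. The 2 arrays a group limit the precision.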
